A study of Homo sapiens with 8 samples.

Results

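The p53 pathway target genes described here are 32 genes known to be switched on by p53, given as a list of gene symbols. They stand among 60652 gene rows counted in each library. The list was chosen with earlier results of these data known, so its shares beside those of all genes are descriptions. Messenger RNA was sequenced from HEK293T cells, a human embryonic kidney line, carrying a TRE3G-GFP reporter. All cells were transfected with 2 kinds of plasmid, one coding for an activator protein and one for its guide, grown in DMEM with 10% FBS, and taken by a cell sorter after 2 days for their mCherry and BFP signal. The activators were dCasMINI-VPR, built on a miniature Cas protein that does not cut, and dCas12a-VPR, built on the larger Cas12a; VPR joins activation domains to either. There were 4 groups of 2 libraries: dCasMINI-VPR with a Tet guide (sgTet) or a non-targeting guide (sgNT), and dCas12a-VPR with a Tet guide (crTet) or a non-targeting guide (crNT). No untransfected cells were analysed here, so each value is relative to cells that also carried an activator and a guide. The labels do not say whether replicates were separate cultures, so p-values measure only the spread between these libraries, which may be technical.

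p53 is a transcription factor that binds paired half-sites in DNA and switches on genes for cell cycle arrest, apoptosis, DNA repair and metabolic control. Its level is held low by MDM2, a ubiquitin ligase that is itself a p53 target, together with the related inhibitor MDM4. HEK293T cells carry the large T antigen of SV40, which binds p53 and blocks much of its induction of targets. Transcripts of the antigen were not analysed here.

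The DNA that p53 recognises is shown for the members whose start-site window holds it. The members were listed by symbol and not by such a search. In RefSeq windows of GRCh38.p14, from 250 bases before to 50 bases after a gene's start, 25 of the 32 members had a window, and 5 of these genes held a p53 consensus element with at most 2 mismatches over its 20 letters and up to 13 bases between the 10-letter half-sites. The same search on both strands found one in 3.62% of the 27305 genes with a window, and in 2.93% of the 35116 windows. Each sequence is written 5′ to 3′ on the gene's strand with the half-sites in capitals and any bases between them in lower case.
DDB2: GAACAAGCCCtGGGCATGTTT
FAS: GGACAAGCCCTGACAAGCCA
MDM2: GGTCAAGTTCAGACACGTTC
AEN: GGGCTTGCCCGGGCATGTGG
FDXR: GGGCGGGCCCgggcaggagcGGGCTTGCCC
DDB2 (chr11:47214979-47214999, plus strand), a sensor of ultraviolet damage, held an exact element, which 10 of all windows (0.0285%) did. Its first base lay 6 bases after the start, in the 5′ UTR. The elements of the others had 2 mismatches. That of FAS (chr10:88991309-88991328, plus strand), a death receptor, lay in a non-coding exon of a GENCODE release 29 transcript, and that of MDM2 (chr12:68808923-68808942, plus strand) in an intron. Those of AEN (chr15:88621306-88621325, plus strand), an apoptosis-enhancing nuclease, and FDXR (chr17:74872996-74873025, minus strand), a mitochondrial ferredoxin reductase, lay in the 5′ UTR of a GENCODE transcript. A match of letters is a description and not a bound site, and the window of CDKN1A held none at this threshold. That window (chr6:36678464-36678763) lay inside the gene's GENCODE span, which starts at 36676460. Sequence further upstream was not searched, so an element there would be missed.

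Library depth was even, at 17474404 to 21081942 reads in genes. CPM are the reads of a gene per 1000000 reads of the TMM-adjusted library. A floor of 3 reads came to between 0.142 and 0.172 per 1000000 reads in genes, before that adjustment. This floor covers counting error alone, since no molecular identifiers were used. Between 8.32% and 9.62% of reads were unmapped in the sgTet, sgNT and crTet libraries, against 14.4% and 12.7% in crNT. The mitochondrial chromosome held 4.57% and 3.49% of gene reads in sgTet against 3.09% and 3.33% in sgNT, and 3.90% and 4.03% in crTet against 2.97% and 3.04% in crNT. The part of either measure in the members' values was not tested. Over all genes the replicates of sgTet stood furthest apart (chi-square of their counts per degree of freedom 13.9, against 3.93 in sgNT, 6.93 in crTet and 3.19 in crNT), and 1 spread was fitted for all groups. The reporter checked the labels: EGFP had 920.1 and 1094 CPM in sgTet against 3.23 and 4.42 CPM in sgNT, and 804 and 708 CPM in crTet against 2.77 and 2.66 CPM in crNT. GAPDH, ACTB and RELA did not pass the test of either guide (smallest adjusted p = 0.136). EGFP was also higher in sgTet than in crTet (0.41 ± 0.08, adjusted p = 0.00265), as were 1.68% of all genes. DESeq2 called 2 of these 4 genes there, each higher. Of 9 markers of HEK293 cells, 5 were called in no comparison; VIM was higher in sgTet than in sgNT (0.46 ± 0.09, adjusted p = 0.00281) and VIM and NEFM in crTet than in crNT (0.35 ± 0.09, adjusted p = 0.0112, and 0.66 ± 0.15, adjusted p = 0.00527). Between constructs VIM was higher and KRT8 lower in sgTet than in crTet, and IRS4 (0.30 ± 0.07, adjusted p = 0.00589) and NEFM were higher and KRT8 lower (-0.72 ± 0.09, adjusted p = 8.41e-07) in sgNT than in crNT. The 9 summed to 1456 and 1315 CPM in sgTet against 1396 and 1431 CPM in sgNT, and 1425 and 1301 CPM in crTet against 1193 and 1255 CPM in crNT, and their part in the members' values was not tested. PTPRC and HBB, which mark blood cells, had no read in any library and the endothelial CDH5 at most 0.103 CPM. Of the 14 markers of other cell types listed, 7 passed the filter on low counts. The 14 markers of other cell types summed to 44.9 and 48.1 CPM in sgTet against 36.9 and 44.0 CPM in sgNT, and 48.8 and 52.0 CPM in crTet against 42.8 and 43.6 CPM in crNT, most of it COL1A1, and their part was not tested either. In such bulk libraries fewer cells with a transcript and less of it per cell cannot be told apart.

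Of the 32 members, 31 passed the filter on low counts. TNFRSF10A, a death receptor for the ligand TRAIL, did not, with 0 to 2 reads in a library and 6 in all. Genes were tested with edgeR's quasi-likelihood test, and "called" means an adjusted p under 0.05 after Benjamini-Hochberg correction over all 16606 genes tested. Levels per transcript length, in CPM per kilobase of exon, spanned from 147 for PMAIP1, a BH3-only trigger of apoptosis, to 2.41 for PLK3, a polo-like kinase. After PMAIP1 came CCNG1 (120.4 on the same scale), BAX (96.8), CDKN1A (86.7), TRIAP1 (75.4) and SESN2 (65.0); the lowest after PLK3 were POLK (2.69), ZMAT3 (3.86) and TNFRSF10D (3.89). The member whose CPM spread most was CDKN1A, whose highest library, crNT replicate 1, had 2.35 times the level of its lowest, sgTet replicate 1. PMAIP1, CCNG1, CYFIP2 and POLK spread least, with ratios of 1.22 to 1.23.

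Most members had their highest level in crNT and their lowest in sgTet. By group mean, the highest level was in sgTet for 0 of the 31 tested members, in sgNT for 5, in crTet for 1 and in crNT for 25. Over all genes tested, it was in sgTet for 27.3%, in sgNT for 20.2%, in crTet for 22.7% and in crNT for 29.8%. The lowest level was in sgTet for 19 members, against 27.5% of all genes, and in crTet for 8, against 21.8% of all genes. The summed CPM of all 32 members was 2922 and 3000 in sgTet against 3420 and 3254 in sgNT, and 3186 and 3171 in crTet against 4011 and 3863 in crNT. Both Tet groups lay below their non-targeting groups in this sum, without overlap. The sum is a description, and no test was made of it.

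**Figure D1:**
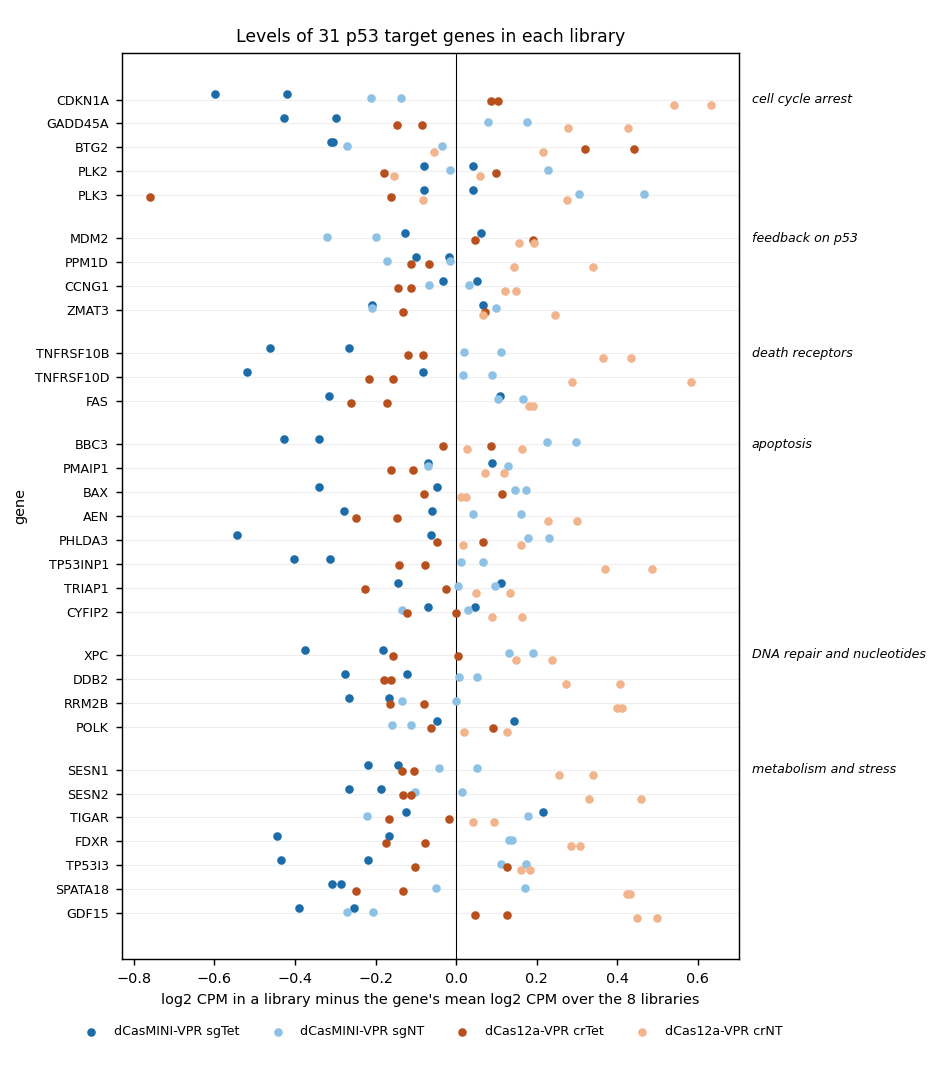
Each row is 1 of the 31 tested p53 target genes, grouped by role, and each point is 1 of 8 libraries, coloured by group; the x axis gives the log2 CPM in a library minus the gene's mean log2 CPM over the 8 libraries. The crNT points lie furthest right for 25 of the 31 genes by group mean, and the sgTet points furthest left for 19.

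The guide comparison within dCasMINI-VPR asked what the Tet guide changed beyond the reporter. In sgTet against sgNT, 7 of the 31 tested members fell and 0 rose; over all genes tested, 0.325% were called lower and 0.47% higher. At an unadjusted p under 0.05 there were 16 members, 1 of them (MDM2) higher. The share of all genes at that cut was not counted, here or below, so such counts have no reference value. DESeq2 called 6 members, 0 of them higher, against 73 genes higher and 49 lower over all genes. Both sgTet libraries lay below both sgNT libraries for 19 members, against 20.2% of all genes. The median log2 fold change of the members was -0.22, and that of all genes 0.00. Those that fell were 2 of the 5 cell cycle genes, 1 of the 3 tested death receptors, 3 of the 8 apoptosis genes and 1 of the 7 metabolism genes, with 0 of the 4 feedback and 0 of the 4 repair genes called. Scaling by library size alone split the calls over all genes into 68 higher and 80 lower, where the TMM scaling gave 78 and 54.

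In the same comparison with dCas12a-VPR, crTet against crNT, 15 members fell and 0 rose; 2.75% of all genes were called lower and 3.56% higher. At an unadjusted p under 0.05 there were 22 members, 1 of them (BTG2) higher. DESeq2 called 15 members, 0 of them higher, against 553 genes higher and 492 lower over all genes. For 23 members both crTet libraries lay below both crNT libraries, against 26.3% of all genes. The median of the members was -0.34 against 0.01 over all genes, on the log2 scale. The members that fell covered every role: 2 of 5 cell cycle genes, 2 of 4 feedback genes, 2 of 3 death receptors, 2 of 8 apoptosis genes, 2 of 4 repair genes and 5 of 7 metabolism genes. With library size alone the calls over all genes were 432 higher and 600 lower, where TMM gave 592 and 457. Leaving out crNT replicate 1 left 7 members called, and leaving out sgNT replicate 1 left 0 in the dCasMINI-VPR comparison.

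The guide comparisons share no library. Both called CDKN1A, GADD45A, TNFRSF10B and FDXR, which is 57.1% of the 7 called with dCasMINI-VPR and 26.7% of the 15 called with dCas12a-VPR. Over all genes, 15 were called lower in both (0.0903% of those tested), which is 27.8% and 3.28% of the genes called lower in each. BBC3, BAX and PHLDA3 were called with dCasMINI-VPR, and AEN, CCNG1, DDB2, GDF15, PPM1D, RRM2B, SESN1, SESN2, SPATA18, TNFRSF10D and TP53INP1 with dCas12a-VPR. The other 13 tested members were called in neither. For 22 of the 31 members both fold changes were below 0, against 24.5% of all genes, and for 15 the Tet libraries lay below the non-targeting libraries in both comparisons, against 5.8% of all genes.

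**Figure D2:**
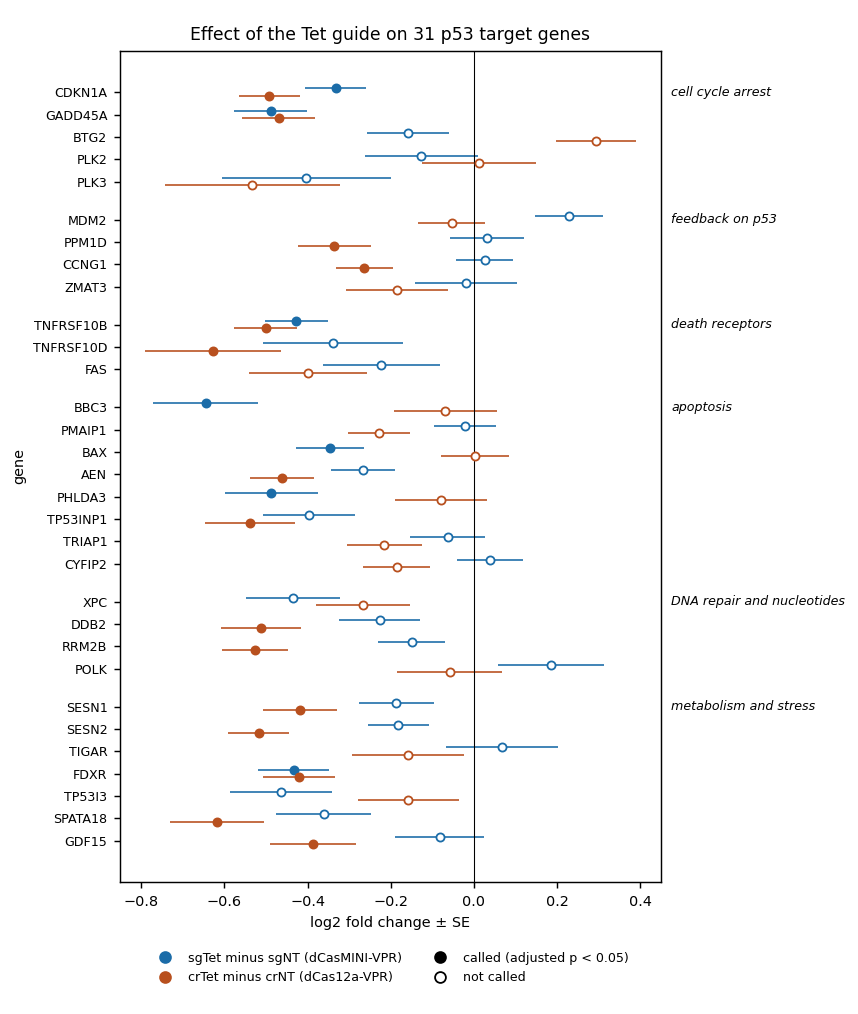
The x axis gives the log2 fold change ± SE of each of the 31 tested p53 target genes, grouped by role, for sgTet minus sgNT and for crTet minus crNT; filled points are called at an adjusted p under 0.05. All filled points lie left of 0, 7 with dCasMINI-VPR and 15 with dCas12a-VPR.

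Among the cell cycle genes, CDKN1A and GADD45A were lower with the Tet guide of either activator. CDKN1A (chromosome 6, 36676460 to 36687339, GRCh38), the p21 inhibitor of cyclin-dependent kinases, had 168 and 190.0 CPM in sgTet against 231 and 219.7 CPM in sgNT, and 273 and 270.1 CPM in crTet against 394 and 370.1 CPM in crNT. The Tet libraries lay below the non-targeting libraries in both comparisons, and the dCasMINI-VPR groups also lay below both dCas12a-VPR groups. Its log2 fold change was -0.33 ± 0.07, adjusted p = 0.0173 in sgTet against sgNT, and -0.49 ± 0.07, adjusted p = 7.76e-05 in crTet against crNT. With dCasMINI-VPR the call was lost with reverse-strand counts (0.0852), with a fit of the compared libraries alone (0.0979), without sgTet replicate 1 (0.173) or without sgNT replicate 1 (0.308) or 2 (0.124), adjusted p in parentheses; with dCas12a-VPR it was called in all 16 alternatives. GADD45A (chromosome 1, 67685061 to 67688338), which slows the cycle after DNA damage, had 63.5 and 69.4 CPM in sgTet against 96.5 and 90.1 CPM in sgNT, and 77.0 and 80.4 CPM in crTet against 115 and 103 CPM in crNT. Again neither pair of groups overlapped. It fell with either activator, -0.49 ± 0.09, adjusted p = 0.00158 and -0.47 ± 0.09, adjusted p = 0.000889; the first call was lost without sgNT replicate 1 (0.118) and the second without crNT replicate 1 (0.0977).

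BTG2, an antiproliferative partner of mRNA deadenylases, did not follow them. It had 64.3 and 64.0 CPM in sgTet against 65.9 and 77.5 CPM in sgNT, and 108 and 99.1 CPM in crTet against 76.5 and 92.3 CPM in crNT. Here crTet held the highest levels of any group, and sgTet the lowest. Neither guide effect passed the test (-0.16 ± 0.10, adjusted p = 0.526, and 0.29 ± 0.10, adjusted p = 0.0612). In crTet against crNT it was called higher with no filter (0.0365), with a fit of the compared libraries alone (0.018), without sgTet replicate 1 (0.0169) or 2 (0.0165) or without crNT replicate 2 (0.0487), adjusted p in parentheses. A replicate block made BTG2 a call there as well, also higher (0.0386). The polo-like kinase PLK2 had 20.3 to 26.9 CPM over the 8 libraries and PLK3 4.80 to 11.2 CPM, and neither was called in any comparison.

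Of the feedback genes, which act on p53 itself, MDM2 was not called with either guide. MDM2 had 157 and 138 CPM in sgTet against 121 and 131 CPM in sgNT, and 172 and 156 CPM in crTet against 168 and 172 CPM in crNT. Both sgTet libraries lay above both sgNT libraries, while the dCas12a-VPR groups overlapped (0.23 ± 0.08, adjusted p = 0.214 in sgTet, and -0.05 ± 0.08, adjusted p = 0.777 in crTet). In sgTet it was called higher without sgTet replicate 2 (0.00603). PPM1D, a phosphatase that dampens damage signalling to p53, had 89.0 and 84.1 CPM in sgTet against 89.2 and 80.0 CPM in sgNT, and 86.0 and 83.3 CPM in crTet against 114 and 99.6 CPM in crNT. The sgTet and sgNT libraries overlapped, and both crTet libraries lay below both crNT libraries. It fell with dCas12a-VPR (-0.34 ± 0.09, adjusted p = 0.0182) and was not called with dCasMINI-VPR (0.03 ± 0.09, adjusted p = 0.921). CCNG1, the cyclin G1 gene, had 386 and 363 CPM in sgTet against 380.1 and 355 CPM in sgNT, and 344 and 337 CPM in crTet against 412 and 404 CPM in crNT. Its groups overlapped or lay apart in the same way as those of PPM1D. It too fell with dCas12a-VPR (-0.26 ± 0.07, adjusted p = 0.0169; 0.03 ± 0.07, adjusted p = 0.914 with dCasMINI-VPR, not called). The PPM1D call was lost with reverse-strand counts (0.0867), without crTet replicate 1 (0.0674) or 2 (0.139) or without crNT replicate 1 (0.466), and the CCNG1 call with forward-strand counts (0.0624), without crTet replicate 1 (0.0612) or 2 (0.117) or without crNT replicate 1 (0.265) or 2 (0.13). ZMAT3, an RNA-binding protein, ranged from 32.1 to 44.0 CPM and was not called.

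TNFRSF10B, the main p53-induced receptor for the death ligand TRAIL, was lower with the Tet guide of both activators. It had 137 and 157 CPM in sgTet against 204 and 192 CPM in sgNT, and 179 and 174 CPM in crTet against 256 and 244 CPM in crNT, with no overlap in either pair. The log2 fold change was -0.43 ± 0.08, adjusted p = 0.00149 in sgTet against sgNT, and -0.50 ± 0.08, adjusted p = 9.15e-05 in crTet against crNT. The first call was lost without sgNT replicate 1 (0.129), and the second in none of the 16 alternatives. TNFRSF10D, a decoy receptor for the same ligand, had 12.7 and 9.39 CPM in sgTet against 14.3 and 13.6 CPM in sgNT, and 12.1 and 11.6 CPM in crTet against 20.1 and 16.4 CPM in crNT. The Tet libraries were lower without overlap in both pairs. It fell with dCas12a-VPR (-0.63 ± 0.16, adjusted p = 0.0169), a call lost with forward-strand counts (0.0503), with reverse-strand counts (0.123), without crTet replicate 1 (0.0694) or 2 (0.116) or without crNT replicate 1 (0.383). With dCasMINI-VPR it was not called (-0.34 ± 0.17, adjusted p = 0.41). FAS was called with neither guide (-0.22 ± 0.14, adjusted p = 0.543 in sgTet against sgNT, and -0.40 ± 0.14, adjusted p = 0.088 in crTet against crNT), and ranged from 16.1 to 22.8 CPM. In crTet it was called lower with forward-strand counts (0.0095), with a fit of the compared libraries alone (0.0373) or without sgTet replicate 1 (0.0307) or 2 (0.0285).

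The 3 members called with dCasMINI-VPR and not with dCas12a-VPR were all apoptosis genes. BBC3, the BH3-only protein PUMA, had 18.2 and 19.3 CPM in sgTet against 30.1 and 28.6 CPM in sgNT, and 26.0 and 23.9 CPM in crTet against 27.4 and 24.9 CPM in crNT. Both sgTet libraries lay below all other libraries, while crTet and crNT overlapped. Its log2 fold change was -0.65 ± 0.13, adjusted p = 0.00428 with dCasMINI-VPR, the largest fall of a member there, and -0.07 ± 0.12, adjusted p = 0.824 with dCas12a-VPR. BAX, which permeabilises the mitochondrial outer membrane, had 197 and 241 CPM in sgTet against 281 and 275 CPM in sgNT, and 235 and 269 CPM in crTet against 251 and 253 CPM in crNT. PHLDA3, an inhibitor of AKT signalling, had 51.9 and 72.4 CPM in sgTet against 85.6 and 88.8 CPM in sgNT, and 73.2 and 79.2 CPM in crTet against 84.5 and 76.5 CPM in crNT. Both had sgTet below sgNT without overlap, the 2 sgTet libraries differing more than the 2 sgNT libraries. BAX fell (-0.35 ± 0.08, adjusted p = 0.0328; 0.00 ± 0.08, adjusted p = 0.997 with dCas12a-VPR), and so did PHLDA3 (-0.49 ± 0.11, adjusted p = 0.0326; -0.08 ± 0.11, adjusted p = 0.757 with dCas12a-VPR). The BBC3 call was lost with reverse-strand counts (0.135) or without sgNT replicate 1 (0.122). The BAX call was lost with DESeq2 (0.0503), with reverse-strand counts (0.0833), with a fit of the compared libraries alone (0.0943), without sgTet replicate 1 (0.408), without sgNT replicate 1 (0.293) or 2 (0.27) or without crNT replicate 1 (0.0552) or 2 (0.0529). The PHLDA3 call was lost with forward-strand counts (0.182), with a fit of the compared libraries alone (0.0936), without sgTet replicate 1 (0.393), without sgNT replicate 1 (0.195) or 2 (0.323) or without crTet replicate 1 (0.0514) or 2 (0.0517).

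AEN and TP53INP1 were the apoptosis genes called with dCas12a-VPR. AEN had 201 and 234 CPM in sgTet against 273 and 251 CPM in sgNT, and 205 and 220.2 CPM in crTet against 300.1 and 286 CPM in crNT. TP53INP1, a stress protein that promotes p53-dependent cell death and autophagy, had 28.9 and 27.1 CPM in sgTet against 37.6 and 36.2 CPM in sgNT, and 34.0 and 32.5 CPM in crTet against 50.3 and 46.3 CPM in crNT. Both genes were lower in the Tet libraries without overlap with either activator. AEN fell with dCas12a-VPR in all 16 alternatives (-0.46 ± 0.08, adjusted p = 0.000278; -0.27 ± 0.08, adjusted p = 0.0996 with dCasMINI-VPR), and TP53INP1 fell there too (-0.54 ± 0.11, adjusted p = 0.00188; -0.40 ± 0.11, adjusted p = 0.0854 with dCasMINI-VPR), a call lost with reverse-strand counts (0.056) or without crNT replicate 1 (0.105). In sgTet AEN was called lower with library size alone (0.0439), with no filter (0.039) or without sgTet replicate 2 (0.000469). PMAIP1 was called with neither (-0.02 ± 0.07, adjusted p = 0.94, and -0.23 ± 0.07, adjusted p = 0.0621 with dCas12a-VPR). In crTet it was called lower with library size alone (0.0325), with no filter (0.0454), with a fit of the compared libraries alone (0.0123) or with a replicate block (0.0309). Its log2 fold change there was -0.23 without sgTet replicate 1 or 2. TRIAP1, a small inhibitor of apoptosis, ranged from 92.6 to 119 CPM and CYFIP2, a cytoskeletal regulator, from 138 to 169 CPM, and neither was called; TRIAP1 was called lower in crTet without sgTet replicate 1 (0.0391) or 2 (0.0395).

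In DNA repair, DDB2 and RRM2B fell with dCas12a-VPR. DDB2, whose window held the exact element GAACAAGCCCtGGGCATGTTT, had 46.5 and 51.8 CPM in sgTet against 56.6 and 58.4 CPM in sgNT, and 49.7 and 50.4 CPM in crTet against 74.6 and 68.1 CPM in crNT. The Tet libraries were lower without overlap in both pairs, and the crNT libraries were the highest. It fell in crTet (-0.51 ± 0.10, adjusted p = 0.001; -0.23 ± 0.10, adjusted p = 0.324 in sgTet), a call lost without crNT replicate 1 (0.0888). For RRM2B, the p53-induced subunit of ribonucleotide reductase, there were 112 and 104 CPM in sgTet against 125 and 114 CPM in sgNT, and 119 and 112 CPM in crTet against 167 and 165 CPM in crNT. The crNT libraries stood apart above the other 6, and the fall in crTet (-0.53 ± 0.08, adjusted p = 9.15e-05; -0.15 ± 0.08, adjusted p = 0.455 in sgTet) was called in all 16 alternatives. XPC, a recogniser of helix distortion, ranged from 26.9 to 41.1 CPM and was lower in the Tet libraries without overlap in both comparisons, but was not called (-0.44 ± 0.11, adjusted p = 0.0612 in sgTet, and -0.27 ± 0.11, adjusted p = 0.168 in crTet). In sgTet it was called lower with library size alone (0.0372), with no filter (0.0227) or without sgTet replicate 2 (0.00502). With a replicate block XPC was also called lower in sgTet (0.0483). POLK, a translesion polymerase, ranged from 21.9 to 27.0 CPM and was not called.

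The metabolism and stress genes held 5 of the 15 calls with dCas12a-VPR. SESN2 and SESN1 encode sestrins, which restrain mTORC1 signalling. SESN2 had 184 and 195 CPM in sgTet against 223 and 206 CPM in sgNT, and 205 and 202 CPM in crTet against 304 and 278 CPM in crNT. For SESN1 there were 63.7 and 60.5 CPM in sgTet against 73.0 and 68.4 CPM in sgNT, and 64.2 and 65.5 CPM in crTet against 84.1 and 89.2 CPM in crNT. Both were lower in the Tet libraries without overlap in each pair, with crNT above all other libraries. SESN2 had the smallest adjusted p of the members with dCas12a-VPR (-0.52 ± 0.07, adjusted p = 4.47e-05), called in all 16 alternatives, and SESN1 fell too (-0.42 ± 0.09, adjusted p = 0.00348), a call lost without crNT replicate 2 (0.101). With dCasMINI-VPR neither was called (-0.18 ± 0.07, adjusted p = 0.286, and -0.19 ± 0.09, adjusted p = 0.392). FDXR (chromosome 17, 74862497 to 74873031) had 84.2 and 102 CPM in sgTet against 125 and 126 CPM in sgNT, and 102 and 109 CPM in crTet against 142 and 139.6 CPM in crNT, with no overlap in either pair. It fell with both (-0.43 ± 0.09, adjusted p = 0.00492 in sgTet, and -0.42 ± 0.09, adjusted p = 0.00219 in crTet); the first call was lost without sgTet replicate 1 (0.105) or without sgNT replicate 1 (0.1) or 2 (0.106) and the second without crNT replicate 1 (0.0726).

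SPATA18, which takes part in mitochondrial quality control, had 27.3 and 26.8 CPM in sgTet against 37.3 and 32.1 CPM in sgNT, and 30.3 and 27.9 CPM in crTet against 44.8 and 44.6 CPM in crNT. The Tet libraries were lower without overlap in both pairs, and the fall in crTet (-0.62 ± 0.11, adjusted p = 0.000758; -0.36 ± 0.12, adjusted p = 0.153 in sgTet) was called in all 16 alternatives. GDF15, a secreted cytokine of cell stress, had 30.3 and 33.2 CPM in sgTet against 32.9 and 34.4 CPM in sgNT, and 43.3 and 41.0 CPM in crTet against 56.0 and 54.2 CPM in crNT. Both dCasMINI-VPR groups lay below both dCas12a-VPR groups and overlapped each other, and crTet lay below crNT. It fell in crTet (-0.39 ± 0.10, adjusted p = 0.0209; -0.08 ± 0.11, adjusted p = 0.806 in sgTet), a call lost with forward-strand counts (0.0799), with reverse-strand counts (0.0863), without crTet replicate 1 (0.0654) or 2 (0.166) or without crNT replicate 1 (0.274) or 2 (0.128). TP53I3, a quinone oxidoreductase, ranged from 21.4 to 32.8 CPM and TIGAR, a fructose bisphosphatase, from 24.6 to 33.4 CPM. Neither was called (-0.46 ± 0.12, adjusted p = 0.0642 for TP53I3 in sgTet). A replicate block made TP53I3 a call, lower in sgTet (0.0475). TP53I3 was called lower in sgTet with library size alone (0.0372), with no filter (0.0235), with reverse-strand counts (0.0459) or without sgTet replicate 2 (0.00534).

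**Figure D3:**
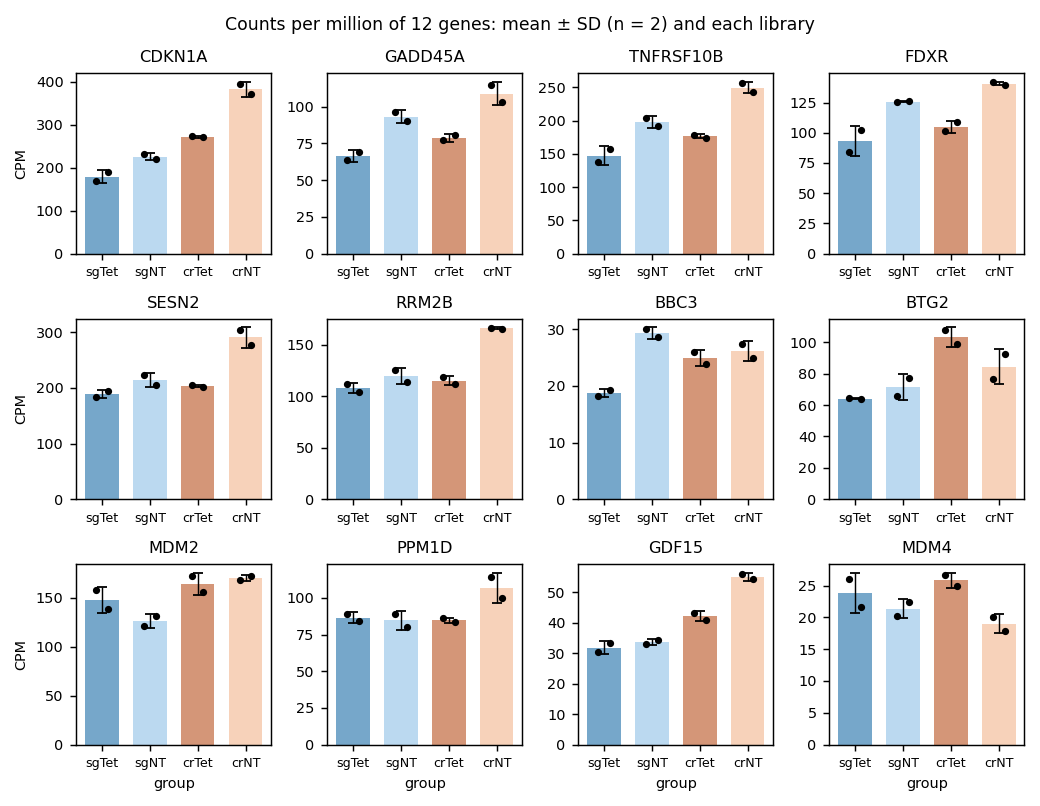
Each panel shows 1 of 12 genes, with the CPM of each library as a point and the group mean ± SD (n = 2) beside it, in the groups sgTet, sgNT, crTet and crNT. CDKN1A stood at 168 and 190.0 CPM in sgTet, 231 and 219.7 CPM in sgNT, 273 and 270.1 CPM in crTet, and 394 and 370.1 CPM in crNT, whereas the MDM2 libraries of crTet (172 and 156 CPM) and crNT (168 and 172 CPM) overlapped.

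Whether the Tet guide acted differently with the 2 activators was tested as the difference of the guide effects, dCasMINI-VPR minus dCas12a-VPR. By edgeR 0 members were called. At an unadjusted p under 0.05 there were 10, and DESeq2 called 1, RRM2B (adjusted p = 0.0474). Over all genes edgeR called 0.506% higher and 0.843% lower, and DESeq2 called 143 genes higher and 156 lower. The differences closest to a call were 0.38 ± 0.11, adjusted p = 0.0819 for RRM2B, -0.45 ± 0.14, adjusted p = 0.0858 for BTG2, -0.58 ± 0.18, adjusted p = 0.0891 for BBC3 and 0.34 ± 0.10, adjusted p = 0.0937 for SESN2. For the genes called with both guides the differences were 0.16 ± 0.10 for CDKN1A, -0.02 ± 0.12 for GADD45A, 0.07 ± 0.11 for TNFRSF10B and -0.01 ± 0.12 for FDXR. A gene called with 1 activator and not the other was therefore not shown to differ between them, nor to respond alike. The count moved with single libraries: without sgTet replicate 2 it was 10 members, 6 of them above 0 (MDM2, PPM1D, CCNG1, PMAIP1, RRM2B and SESN2) and 4 below (BTG2, BBC3, BAX and PHLDA3), and without sgTet replicate 1 it was 1, SESN2.

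The activators were compared within each kind of guide. Construct and guide scaffold differ together here, and the labels name no batch, so the protein, its guide and any difference in preparation cannot be told apart. With non-targeting guides, 11 members were lower in sgNT than in crNT and 0 higher, against 3.6% of all genes called lower and 4.09% higher. At an unadjusted p under 0.05 there were 17 members, 0 of them higher. DESeq2 called 11 members, against 672 genes higher and 552 lower over all genes. Both sgNT libraries lay below both crNT libraries for 19 members, and for 27.9% of all genes. With library size alone the calls over all genes were 583 higher and 626 lower, where TMM gave 679 and 597. With Tet guides, 4 members were lower in sgTet than in crTet and 0 higher, against 2.6% of all genes called lower and 1.68% higher. There 10 members had an unadjusted p under 0.05, 0 of them higher. DESeq2 called 3 members, against 291 genes higher and 390 lower over all genes. For 14 members the libraries lay apart and lower, against 22.5% of all genes. With library size alone the calls over all genes with Tet guides were 185 higher and 464 lower, where TMM gave 279 and 432.

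CDKN1A, GDF15 and TNFRSF10B were lower with dCasMINI-VPR under both kinds of guide, as were 0.982% of all genes. For CDKN1A the log2 fold change was -0.60 ± 0.07, adjusted p = 8.03e-07 in sgTet against crTet and -0.76 ± 0.07, adjusted p = 3.52e-09 in sgNT against crNT, both called in all 16 alternatives. For GDF15 it was -0.41 ± 0.11, adjusted p = 0.0204 and -0.71 ± 0.11, adjusted p = 1.74e-05, and for TNFRSF10B -0.26 ± 0.08, adjusted p = 0.0465 and -0.33 ± 0.08, adjusted p = 0.00422, in the same order. The GDF15 call between Tet guides was lost with forward-strand counts (0.117), with a fit of the compared libraries alone (0.109), without sgTet replicate 1 (0.128) or without crTet replicate 1 (0.134) or 2 (0.0605), and that between non-targeting guides in none. The TNFRSF10B call between Tet guides was lost with RLE size factors (0.0502), with DESeq2 (0.0578), with forward-strand counts (0.125), with reverse-strand counts (0.0844), with a fit of the compared libraries alone (0.223), without sgTet replicate 1 (0.315), without sgNT replicate 1 (0.0796) or 2 (0.0789), without crTet replicate 1 (0.185) or 2 (0.129) or without crNT replicate 1 (0.0901) or 2 (0.0889). Its call between non-targeting guides was lost without sgNT replicate 2 (0.181) or without crNT replicate 1 (0.147). BTG2 was the other member called between Tet guides (-0.69 ± 0.10, adjusted p = 1.25e-05), in all 16 alternatives; between non-targeting guides it was not called (-0.24 ± 0.10, adjusted p = 0.142).

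Between non-targeting guides the other 8 members called lower in sgNT than in crNT were MDM2 (-0.43 ± 0.08, adjusted p = 0.000486), RRM2B (-0.47 ± 0.08, adjusted p = 0.000121), SESN2 (-0.44 ± 0.07, adjusted p = 0.000108), PPM1D (-0.34 ± 0.09, adjusted p = 0.0144), TP53INP1 (-0.39 ± 0.11, adjusted p = 0.0201), SESN1 (-0.29 ± 0.09, adjusted p = 0.0358), DDB2 (-0.31 ± 0.10, adjusted p = 0.0393) and SPATA18 (-0.36 ± 0.11, adjusted p = 0.0404). Between Tet guides none of these 8 was called, and their log2 fold changes ran from -0.25 for TP53INP1 to 0.03 for PPM1D. MDM2, RRM2B and SESN2 were called in all 16 alternatives. The PPM1D call was lost without sgNT replicate 2 (0.33) or without crNT replicate 1 (0.393). The TP53INP1 call was lost with reverse-strand counts (0.138), without sgNT replicate 1 (0.0854) or 2 (0.242) or without crNT replicate 1 (0.307) or 2 (0.0852), the SESN1 call with forward-strand counts (0.227), without sgNT replicate 1 (0.0913) or 2 (0.379) or without crNT replicate 1 (0.164) or 2 (0.334), the DDB2 call with reverse-strand counts (0.262), without sgNT replicate 1 (0.211) or 2 (0.225) or without crNT replicate 1 (0.439) or 2 (0.113) and the SPATA18 call with forward-strand counts (0.211), with reverse-strand counts (0.057), without sgNT replicate 2 (0.472) or without crNT replicate 1 (0.269) or 2 (0.218). This comparison shares the crNT libraries with the dCas12a-VPR guide comparison and the sgNT libraries with the other, so the values stand side by side and are not separate evidence.

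**Figure D4:**
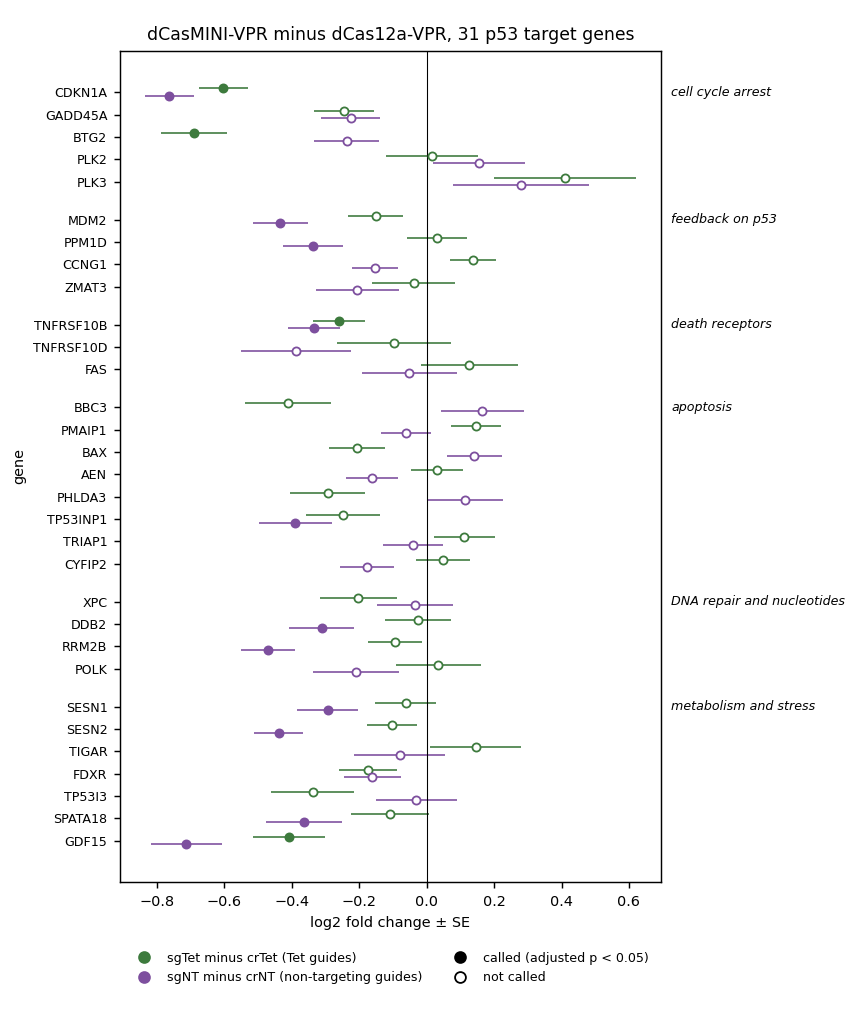
The x axis gives the log2 fold change ± SE of each of the 31 tested p53 target genes, grouped by role, for sgTet minus crTet and for sgNT minus crNT; filled points are called at an adjusted p under 0.05. All filled points lie left of 0, 4 between Tet guides and 11 between non-targeting guides.

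MDM4, the inhibitor related to MDM2, had 26.1 and 21.7 CPM in sgTet against 20.3 and 22.4 CPM in sgNT, and 26.6 and 25.0 CPM in crTet against 20.1 and 17.9 CPM in crNT. It rose in crTet (0.44 ± 0.13, adjusted p = 0.0423; 0.16 ± 0.13, adjusted p = 0.652 in sgTet), a call lost with library size alone (0.0657), with forward-strand counts (0.186), with reverse-strand counts (0.0535), without sgNT replicate 1 (0.0549) or 2 (0.0544), without crTet replicate 1 (0.206) or 2 (0.102) or without crNT replicate 1 (0.179) or 2 (0.342). Of 24 p53 regulators, 23 were tested. With dCasMINI-VPR 0 were called, 5 had an unadjusted p under 0.05, and DESeq2 called 0; with dCas12a-VPR 3 rose and 0 fell, RPL11, a ribosomal protein that binds MDM2 (0.39 ± 0.07, adjusted p = 0.000512), CREBBP, an acetyltransferase (0.40 ± 0.09, adjusted p = 0.00638), and MDM4. Between constructs CREBBP and KAT5 were higher in sgNT than in crNT, and PPP1R13L, an inhibitor of p53, was lower in sgTet than in crTet (-0.63 ± 0.14, adjusted p = 0.00482) and in sgNT than in crNT (-0.52 ± 0.14, adjusted p = 0.0145). TP53BP2 and USP7 were higher in sgTet than in crTet. Of the tested regulators, 13% were called higher in crTet against crNT, where 3.56% of all genes were called higher and 2.75% lower. In each construct comparison 8.7% of the tested regulators were called higher and 4.35% lower. Over all genes these shares were 4.09% and 3.6% in sgNT against crNT, and 1.68% and 2.6% in sgTet against crTet.

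A further 36 genes known as p53 targets, of which 33 were tested, were read for comparison. In sgTet against sgNT 0 were called by either edgeR or DESeq2, with 6 at an unadjusted p under 0.05 and a median log2 fold change of -0.05. In crTet against crNT 6 fell and 0 rose, with a median of -0.20; TRIM22, an antiviral ubiquitin ligase (-0.73 ± 0.14, adjusted p = 0.00125), PRKAB1, a subunit of AMP-activated kinase (-0.50 ± 0.10, adjusted p = 0.00164), RETSAT (-0.42 ± 0.10, adjusted p = 0.00888) and APAF1, the scaffold of the apoptosome (-0.36 ± 0.09, adjusted p = 0.015), led by adjusted p. In sgNT against crNT 6 were lower and 0 higher by edgeR, TRIM22 the most (-1.59 ± 0.15, adjusted p = 1.73e-09), and in sgTet against crTet 4 were lower and 0 higher, again with TRIM22 (-1.28 ± 0.15, adjusted p = 6.66e-07). DESeq2 called 6 in sgNT against crNT, 1 of them higher. Of those tested, 18.2% were called lower by edgeR in crTet against crNT, against 2.75% of all genes. The share was 18.2% in sgNT against crNT and 12.1% in sgTet against crTet, against 3.6% and 2.6% of all genes. The RB and E2F list held 24 genes of the axis on which CDKN1A slows the cycle. Among them were other inhibitors of cyclin-dependent kinases, such as CDKN1B, through which CDKN1A does not act. In crTet against crNT 2 rose (CDKN1B and CCNE1) and 3 fell (CDC6, RB1 and CDC25A). In sgTet against sgNT 0 were called by either tool, with 3 at an unadjusted p under 0.05. CCNE1 (0.64 ± 0.11, adjusted p = 0.000244) and E2F1 (0.29 ± 0.09, adjusted p = 0.0372) were higher in sgNT than in crNT, and 0 were lower. CDKN1B was lower in sgTet than in crTet (-0.45 ± 0.12, adjusted p = 0.0254), and 0 were higher. In the difference of the guide effects CDC6 was called above 0 (0.39 ± 0.10, adjusted p = 0.0478), as were 0.506% of all genes. Of these 24 genes, 8.33% were called higher and 12.5% lower in crTet against crNT, where all genes gave 3.56% and 2.75%. In sgNT against crNT 8.33% were higher, against 4.09% of all genes. In sgTet against crTet 4.17% were lower, against 2.6% of all genes.

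Several members, among them SESN2 and GDF15, are also known to be switched on by ATF4, the factor of the amino acid and endoplasmic reticulum stress response. A list of 18 genes held ATF4 itself and its targets. Its summed CPM was 2317 and 2470 in sgTet against 2556 and 2461 in sgNT, and 2605 and 2710 in crTet against 2875 and 2798 in crNT. Of these sums ATF4 itself gave 730 and 723 CPM in sgTet, 736 and 714 in sgNT, 748 and 750 in crTet, and 801 and 741 in crNT. Of the 17 tested, 0 were called in sgTet against sgNT by either tool, with 7 at an unadjusted p under 0.05; in crTet against crNT 4 fell, TRIB3 (-0.52 ± 0.10, adjusted p = 0.00106), CTH, SLC3A2 and SLC7A11, and CEBPB rose. In sgNT against crNT 5 were lower, CTH (-0.55 ± 0.10, adjusted p = 0.000379), SLC7A11, TRIB3, PPP1R15A and PSAT1, and in sgTet against crTet 3 were lower, PPP1R15A, DDIT4 and CEBPB. In the difference of the guide effects CEBPB was called below 0 (-0.73 ± 0.17, adjusted p = 0.0196), as were 0.843% of all genes. DESeq2 gave CEBPB no adjusted p there, so the tools cannot be compared for it, and it called 0 of the rest of this list. In crTet against crNT 2.75% of all genes were called lower and 3.56% higher. Called lower over all genes were 3.6% in sgNT against crNT and 2.6% in sgTet against crTet. The part of the ATF4 response in the members' values was not tested.

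Counts ignored strand, and reads overlapping more than 1 gene were left uncounted, so members that share exons are less certain. TIGAR shares 42.6% of its exon bases with the overlapping gene AC008012.1, XPC 23.8% with an antisense gene, PHLDA3 19.1% with AC096677.2, FAS 8.94% with ACTA2, POLK 8.28% with AC010245.1, SESN1 7.09% with AL390208.1, MDM2 5.91% with AC025423.4 and CDKN1A 4.79% with the transcript DINOL. For each of these the overlap with the largest share is given.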

How the data were processed

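Per the submitters' processing notes, STAR aligned the reads to hg38; its version is not given in the sources used here. The authors deposited raw counts of reads per gene, without normalization, for each library. Of the 3 count columns, the one that ignores strand was used. Its 4 totals that name no gene, between 25.3% and 29.9% of all reads, entered neither library sizes nor tests. Gene positions and exon lengths came from GENCODE release 29. Counts were fitted with edgeR 4.0.16 in R 4.3.3 (quasi-likelihood, robust, two-sided) in 1 model of 8 libraries with 4 group means, TMM factors and the default filter on low counts by group, giving 16606 genes, 4 residual and 28.9 prior degrees of freedom per gene and a common biological coefficient of variation of 8.04%. CPM are counts over the TMM-adjusted library size. The SE is |log2 fold change| over the square root of F. Alternatives were RLE factors, library size alone, no filter, either strand's counts, DESeq2 1.42.0, a replicate block, the compared libraries alone, and each library left out; adjusted p-values of lost calls stand in parentheses. When a library is left out, the lone one is taken to vary as the other groups do. The steps were tested on simulated data.

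The members and all gene lists were chosen with earlier results of these data known. All 32 members are reported, with each library's values for those called between guides or constructs; MDM4 is given whatever its values, and 1 other gene of that kind is not reported here; of other lists up to 4 called genes per comparison by smallest adjusted p; those named without values, and any beyond 4, complete a count and were picked with their values in view.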

Additional observations from a re-analysis of the deposited data

How the results depend on the processing

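No member reversed its direction where it was called. The number of members called, 7 in sgTet against sgNT, was 4 when only the compared libraries were fitted and 0 to 11 when single libraries were left out: 0 without sgNT replicate 1, 3 without sgNT replicate 2 or sgTet replicate 1, and 11 without sgTet replicate 2, of which 1 (MDM2) was higher. The 15 in crTet against crNT became 7 (without crNT replicate 1) to 19, with 1 (BTG2) higher in 6 of the 16 alternatives. For the difference of the guide effects, 0 became 1 with no filter (BTG2), with DESeq2 (RRM2B) or with a replicate block (RRM2B), and 0 to 10 with single libraries left out; a fit of the compared libraries alone was not run, as it uses all 8. The 11 in sgNT against crNT became 19 with the compared libraries alone, 1 of them (BAX) higher, and 5 to 12 with single libraries left out (5 without sgNT replicate 2 or crNT replicate 1, and 7 without crNT replicate 2). The 4 in sgTet against crTet became 2 with forward-strand counts or the compared libraries alone, and 2 to 11 with single libraries left out (2 without sgTet replicate 1 or crTet replicate 1 or 2, and 11 without sgTet replicate 2, 1 of them, PMAIP1, higher). With a replicate block the counts were 9, 17, 1, 11 and 5 in the order above; the correlation of same-numbered libraries' deviations, -0.0311 to 0.0488, gave no sign that the numbers pair them.

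Over all genes, the 132 calls in sgTet against sgNT became 276 with no filter, 84 with the compared libraries alone and 50 (without sgNT replicate 2) to 1475 (without sgTet replicate 2). The 1049 in crTet against crNT became 661 with forward-strand counts, 1785 with the compared libraries alone and 135 (without crNT replicate 1) to 1965 (without sgTet replicate 2). The 224 in the difference became 450 with no filter, 106 with forward-strand counts, 400 with the replicate block and 28 (without sgNT replicate 2) to 1835 (without sgTet replicate 2). The 1276 in sgNT against crNT became 2968 with the compared libraries alone and 333 (without sgNT replicate 2) to 2143 (without sgTet replicate 2), and the 711 in sgTet against crTet became 444 with forward-strand counts, 317 with the compared libraries alone and 331 (without crTet replicate 2) to 2150 (without sgTet replicate 2). The cause was not tested. With 2 libraries a group, 1 library can decide a call, and TNFRSF10A, under the floor of 3 reads in every library, cannot be compared at this depth.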
